A study of Homo sapiens with 21 samples.

Results

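The genes of the mitochondrial genome were followed across 21 RNA-seq libraries of MDA-MB-453 cells, a human breast cancer cell line. All rows placed on the chromosome MT were taken, 37 of the 58735 genes listed, of which 13 encode mRNAs, 2 rRNAs and 22 tRNAs. By the annotated strand, 28 lie on the plus strand and 9 on the minus strand, the latter being MT-ND6 and 8 tRNA genes. The cells were wild type in genotype, as labelled, and each of 7 groups held 3 libraries. The groups were an untreated control, calcium at 10 mM, cadmium at 10 μM, GSK4716 at 5 μM, DES at 10 μM, and DES followed by either metal (DES_calcium and DES_cadmium), each for 24 h and with the metal added 3 h after DES in the combinations. GSK4716 is an agonist of estrogen-related receptors, and DES (diethylstilbestrol) is a synthetic estrogen used here as an antagonist of ESRRB. The protocol places calcium and GSK4716 in medium without serum and cadmium in medium with 1% charcoal-stripped serum. A single control was used, and the medium of the control and of DES alone is not given separately for these media. The paper gives ethanol as the solvent of DES and GSK4716 and names no control treated with ethanol. Medium or solvent and treatment therefore cannot be told apart, also where DES is compared. Nothing in the labels says that replicates came from separate cultures, so the p-values measure the spread between these libraries only.

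The human mitochondrial genome is a small circle that is transcribed from both strands into long precursors. These are cut mostly at the tRNAs that lie between the other genes, and most of the mRNAs and the rRNAs then receive poly-A tails, MT-ND6 being the known exception among the mRNAs. The mRNAs encode subunits of the respiratory chain and of ATP synthase, while the rRNAs and tRNAs serve the translation of these mRNAs inside the organelle. All proteins that transcribe, cut, tail and degrade these RNAs are encoded in the nucleus.

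The libraries were made from RNA captured on poly-T beads, so each value below is of RNA that was captured in this way. The sequences that bear on which genes could be measured come first, read from GRCh38, where all 37 genes have the same position and strand in the annotation used. The mRNA genes differ in how they end, since 6 of 13 stop within a codon and need a tail to complete it, while 7 carry a complete stop codon. The last 24 bases of 4 plus-strand mRNA genes with an incomplete stop and of the minus-strand gene MT-ND6, written in the sense of the RNA with the stop codon bases in capitals, were:
MT-ND1: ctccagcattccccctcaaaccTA
MT-CO3: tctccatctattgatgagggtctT
MT-ND4: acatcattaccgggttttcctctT
MT-CYB: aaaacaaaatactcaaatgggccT
MT-ND6: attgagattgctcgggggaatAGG

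Most neighbouring genes lie end to end, and some share bases. MT-ATP8 and MT-ATP6 share 46 bases in different reading frames (chrM:8517-8582, plus strand, GRCh38; shared bases in capitals, 10 bases on each side). MT-ND4L and MT-ND4 share 7 bases (chrM:10750-10776, plus strand, shown in the same way):
MT-ATP8 and MT-ATP6: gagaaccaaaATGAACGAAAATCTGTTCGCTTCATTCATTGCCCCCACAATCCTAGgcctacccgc
MT-ND4L and MT-ND4: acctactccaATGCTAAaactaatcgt

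The 4 tRNA genes with the most signal are all on the minus strand. MT-TC and MT-TN are parted by a gap of 31 bases, which holds the origin of replication of the light strand (chrM:5657-5826, minus strand, from MT-TC to MT-TN with the gap in capitals). MT-TY shares 1 base with MT-TC (chrM:5826-5891, minus strand), and MT-TP borders the noncoding control region (chrM:15956-16023, minus strand). They are shown because the largest changes among the abundant genes fell on MT-TN and MT-TC:
MT-TC, gap, MT-TN: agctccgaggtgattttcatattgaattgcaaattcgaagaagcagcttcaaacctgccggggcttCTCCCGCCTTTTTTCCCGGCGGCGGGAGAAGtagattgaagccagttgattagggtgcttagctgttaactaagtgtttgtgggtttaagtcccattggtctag
MT-TY: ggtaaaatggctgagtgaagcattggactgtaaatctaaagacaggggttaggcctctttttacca
MT-TP: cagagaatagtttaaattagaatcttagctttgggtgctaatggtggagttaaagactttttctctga

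Values are FPKM as deposited, that is fragments relative to the length of the gene and the size of the library. Fragments on genes numbered 14435925 to 28424805 in a library (median 18314738), recovered as whole numbers from the FPKM values. The library sizes behind the deposited FPKM were 0.693 to 1.15 times these totals. This factor was 1.12 ± 0.0337 in the control, 0.995 ± 0.0771 with DES alone and 0.862 ± 0.147 in the DES_cadmium group (SD, n = 3), where the lowest value, 0.693, belonged to the library DES_cadmium 1. That library had the highest FPKM of its group for all 13 mRNA genes. The luminal markers KRT8, KRT18, KRT19, EPCAM, ERBB2, FOXA1 and GATA3 were between 50.9 and 1315 FPKM in every library. The leukocyte, endothelial and basal markers PTPRC, PECAM1, KRT5 and KRT14, and the estrogen receptor gene ESR1, did not exceed 0.699 FPKM in any library, while the fibroblast marker COL1A1 lay between 9.34 and 32.7.

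Over all 21 libraries, MT-CO1 had the highest mean FPKM of all genes, and the next 5 ranks were also mitochondrial (MT-RNR2, MT-CO2, MT-ND4, MT-ATP6 and MT-CO3). MT-CO1, a core subunit of cytochrome c oxidase, averaged 9318 FPKM, and MT-RNR2, the large subunit rRNA, 8586. MT-ATP8 had the lowest mean of the mRNA genes, 199 FPKM. In the control, MT-CO1 (11385 ± 2750 FPKM, SD, n = 3) and MT-CO2 (9992 ± 601) overlapped, while MT-CO2 lay above MT-ND4 (7800 ± 779) in every library. In cadmium and GSK4716 libraries MT-CO1 lay clear of the second gene. With DES, MT-RNR2 came first in each of the 3 groups, and it lay clear of MT-CO1 with DES and with DES and calcium but not with DES and cadmium.

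The mitochondrial share of fragments was lower on average in each group with DES than in its match without DES, and its make-up differed too. Control libraries had 8.19, 7.70 and 7.93% of their fragments on the 37 genes, and DES libraries 4.96, 3.47 and 4.21%. The shares were 6.91, 4.88 and 7.55% with calcium and 5.17, 4.34 and 4.57% with DES and calcium. With cadmium they were 9.39, 9.75 and 7.36%, and with DES and cadmium 5.31, 1.97 and 3.11%. GSK4716 libraries had 8.20, 8.84 and 8.38%, the lowest of them level with the highest control library. Calcium and DES with calcium overlapped, since calcium 2 lay below DES_calcium 1, while the other pairs with and without DES did not. Counting error was small beside these differences, since the widest 95% Wilson interval of a share reached 0.0142 percentage points to each side. These shares do not depend on how the libraries were scaled. As the libraries are bulk samples, less RNA per cell and fewer cells with the RNA cannot be told apart.

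The mRNA part of the share separated libraries with and without DES. It was between 4.32 and 8.10% (median 6.63%) in the 12 libraries without DES and between 0.783 and 3.56% (median 2.04%) in the 9 with DES, with no overlap. The rRNA part was between 0.540 and 2.01% (median 1.27%) without DES and between 1.18 and 2.59% (median 1.81%) with it, so that these ranges overlapped. The tRNA part was between 0.021 and 0.0533% without DES and between 0.00412 and 0.00959% with it. The rRNA genes therefore made up 7.86 to 21.2% of mitochondrial fragments without DES and 32.8 to 60.1% with DES. Genes annotated on the minus strand made up 1.79 to 2.99% without DES and 0.605 to 1.10% with DES. No test was run on these shares, which are sums over the genes described below.

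**Figure D1:**
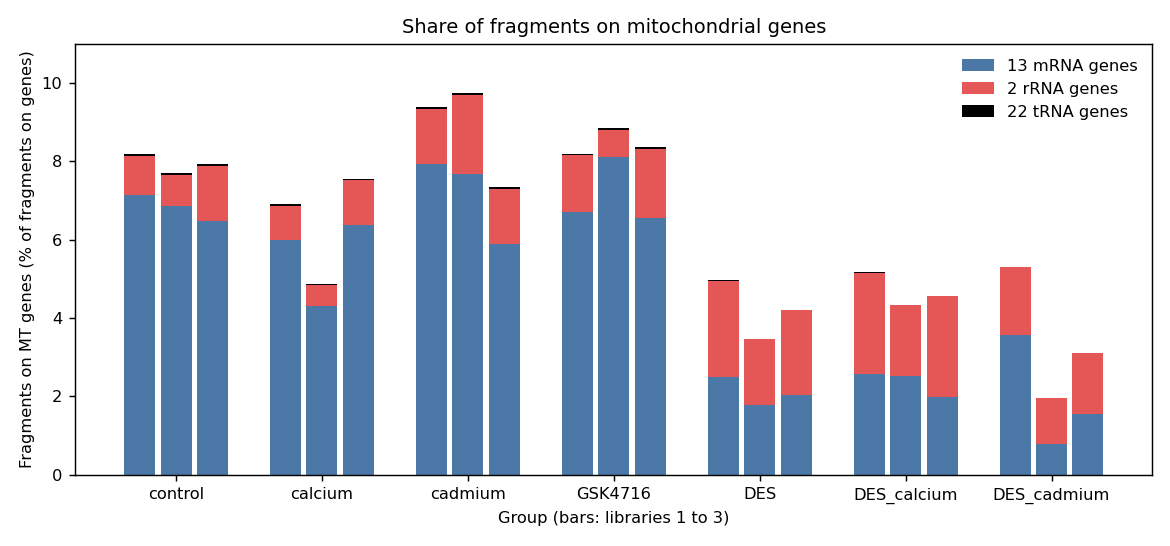
Fragments on the 37 mitochondrial genes as a percentage of all fragments on genes, for each of the 21 libraries (bars, in order of replicate number within a group), stacked by mRNA, rRNA and tRNA genes. The mRNA segment was at least 4.32% without DES and at most 3.56% with it, and the tRNA segment, at most 0.0533%, is barely visible.

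Each gene was then tested with limma on log2(FPKM + 0.1), which understates the changes of low genes, over the 14686 genes with a mean of at least 0.5 FPKM. All 37 mitochondrial genes passed this filter. Genes with a Benjamini-Hochberg adjusted p under 0.05 over all those tested are said to be called. The comparison of DES with the control asked how libraries with DES differed without a metal. It called 13 mitochondrial genes lower and 1 higher, where 12.9% of all genes tested were called lower and 16.7% higher. The genes called lower were 6 mRNA genes and 7 tRNA genes. All 13 mRNA genes had negative values (median -1.40, against 0.05 over all genes tested), and in 10 of 13 every DES library lay below every control library, against 22.9% of all genes.

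Subunits of complex I, the NADH dehydrogenase, were among them. Where values of both groups follow each other, here and below, the libraries without DES come first. MT-ND1 stood at 2854, 2848 and 2687 FPKM in the control and 674, 516 and 708 with DES, a change of -2.16 on the log2 scale (standard error 0.29, adjusted p = 0.00330). MT-ND5 stood at 1521, 1558 and 1915 FPKM in the control and 648, 417 and 709 with DES, a change of -1.52 (standard error 0.31, adjusted p = 0.0125). MT-ND6, the mRNA of the minus strand, fell from 1952, 1940.3 and 2791 to 533, 384 and 654 FPKM, a change of -2.10 (standard error 0.33, adjusted p = 0.00529). In all 3 genes every DES library lay below every control library. The remaining complex I genes were not called. MT-ND2 had a log2 fold change of -0.82 (adjusted p = 0.212), MT-ND3 of -1.31 (adjusted p = 0.0959), MT-ND4 of -1.40 (adjusted p just above the threshold) and MT-ND4L of -1.25 (adjusted p = 0.0552).

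Of the cytochrome c oxidase subunits, MT-CO2 and MT-CO3 fell. MT-CO2 was at 10456, 10206 and 9313 FPKM in the control and 2794, 1621 and 1176 with DES, a change of -2.51 on the log2 scale (standard error 0.49, adjusted p = 0.0106). MT-CO3 was at 7396, 7739 and 5977 against 2215, 1303 and 844 FPKM, a change of -2.38 (standard error 0.48, adjusted p = 0.0119). MT-CO1 was at 10972, 8864 and 14318 against 5582, 3255 and 4606 FPKM, and its difference of -1.35 (adjusted p = 0.0968) was not called although the groups did not overlap. MT-CYB, which encodes cytochrome b of complex III, fell from 3557, 3711 and 2810.1 to 1755, 1027 and 595 FPKM, a change of -1.70 (standard error 0.46, adjusted p = 0.0319). The subunits of ATP synthase overlapped between the groups. MT-ATP6 was at 7113, 6519 and 3584 FPKM in the control and 4063, 2782 and 1395 with DES (-1.13, adjusted p = 0.165), and MT-ATP8 had a difference of -1.29 (adjusted p = 0.329).

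The rRNA genes went the other way without being called. MT-RNR1, the small subunit rRNA, was at 1733, 1996 and 1654 FPKM in the control and 4824, 2260.0 and 3158 with DES, a log2 difference of 0.86 (standard error 0.41, adjusted p = 0.150). MT-RNR2 was at 4626, 3227 and 7217 against 14332, 9188 and 11217 FPKM, a difference of 1.26 (standard error 0.57, adjusted p = 0.135). In both genes every DES library lay above every control library, which held for 25.9% of all genes tested. With limma-voom on the recovered fragments both were called (adjusted p = 0.0409 and 0.0186, over a range from these to 1 across the alternatives).

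All 4 abundant tRNA genes fell. MT-TC, the tRNA for cysteine, was at 2123, 1986 and 2093 FPKM in the control and 147, 146 and 344 with DES, a change of -3.40 on the log2 scale (standard error 0.37, adjusted p = 0.00174). MT-TN, for asparagine, was at 1054, 905 and 2452 against 41.2, 56.3 and 289 FPKM, a change of -3.92 (standard error 0.75, adjusted p = 0.0105). MT-TY, for tyrosine, was at 144, 220.2 and 381 against 28.1, 16.2 and 129 FPKM, a change of -2.56 (standard error 0.75, adjusted p = 0.0407). MT-TP, for proline, was at 1141, 1081 and 1414 against 521, 412 and 392 FPKM, a change of -1.46 (standard error 0.25, adjusted p = 0.00775). The groups did not overlap in any of them, and the fall in MT-TC and MT-TN, the pair on either side of the gap printed above, was the deepest of the genes with a mean of at least 100 FPKM.

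Another 4 tRNA genes with few fragments were also called. MT-TR, for arginine, had 21, 40 and 26 fragments in the control and 0, 1 and 3 with DES, at least 8.69-fold lower against a limit of 3 fragments per library. MT-TL2, a tRNA for leucine, had 10, 6 and 8 against 0, 0 and 3 fragments, at least 2.27-fold lower. MT-TH, for histidine, had 18, 67 and 23 against 6, 0 and 2 fragments (adjusted p = 0.0441), too few with DES for an exact fold. MT-TW, for tryptophan, was the gene called higher, with 0, 1 and 0 against 3, 1 and 3 fragments (adjusted p = 0.0395). It was called in 4 of the 16 alternatives that tested it. No fold is given for it, because no library of either group exceeded 3 fragments.

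The number of mitochondrial genes called with DES moved with single libraries. It was 6 without control 1, 6 without control 2, 9 without control 3 and 5 without DES 2, and 9 when the third library of both groups was left out. The share of all genes called, in either direction, moved with it, from 29.6% to 13.1, 14.5, 19.9, 16.6 and 16.5% in the same order. The mRNA genes stayed below the control in all 221 values of 13 genes under 17 alternatives. A fold change limit, another filter, all groups in one fit or a block for the replicate number leave the difference itself unchanged. Its sign could not turn under these.

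**Figure D2:**
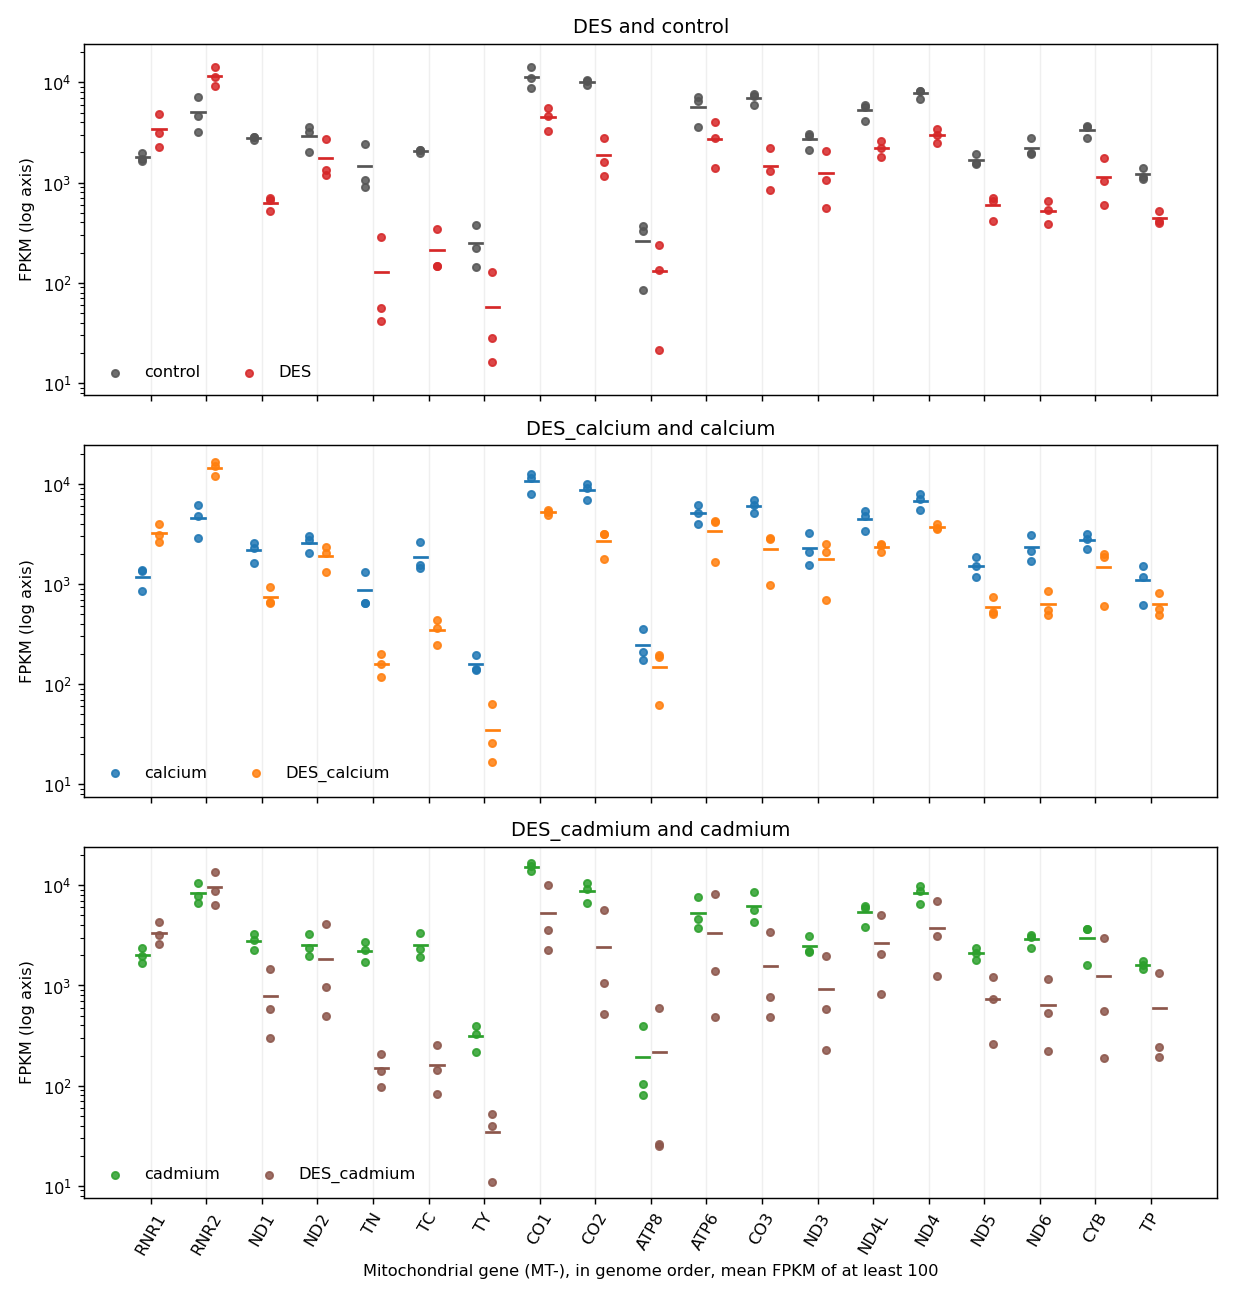
FPKM (log axis) of the 19 mitochondrial genes with a mean of at least 100, in genome order, for DES and control, DES with calcium and calcium, and DES with cadmium and cadmium. Points are libraries and short lines are means of 3. MT-ND1, MT-ND5, MT-ND6, MT-CO1, MT-CO2, MT-CO3, MT-TN, MT-TC and MT-TY lay lower in every DES library of each panel, and MT-RNR1 higher. Of all genes tested, 22.9, 25.1 and 21.4% lay lower in this way and 25.9, 25.7 and 18.6% higher, in the order of the panels.

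Whether DES did the same on a background of calcium was read from DES with calcium against calcium, which shares no library with the first comparison. Here 2 mitochondrial genes were called higher and 9 lower, where 18.5% of all genes were called higher and 16.5% lower. Those called higher were the rRNA genes. MT-RNR1 was at 1381, 844 and 1339 FPKM with calcium and 3084, 2598 and 3938 with DES and calcium, a change of 1.45 on the log2 scale (standard error 0.33, adjusted p = 0.0179). MT-RNR2 was at 4806, 2847 and 6132 against 16498, 11841 and 15175 FPKM, a change of 1.71 (standard error 0.50, adjusted p = 0.0380). The libraries with DES were all above those without it in both genes (25.7% of all genes). Leaving out 1 library, 0 mitochondrial genes were called higher without calcium 1, calcium 2 or DES_calcium 1. Without calcium 3, DES_calcium 2 or DES_calcium 3 it was 1. In these fits 22.2 to 29% of all genes were called, in either direction.

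Of the mRNA genes 4 were called lower, and the median of the 13 was -0.99 (-0.01 over all genes). MT-ND1 was at 2308, 1617 and 2571 against 642, 936 and 655 FPKM, a change of -1.54 (standard error 0.30, adjusted p = 0.0103). MT-ND5 was at 1529, 1177 and 1843 against 524, 498 and 748 FPKM, a change of -1.36 (standard error 0.28, adjusted p = 0.0126). MT-ND6 was at 2151, 1698 and 3112 against 555, 489.6 and 862 FPKM, a change of -1.87 (standard error 0.35, adjusted p = 0.00881). MT-CO2 was at 9003, 6974 and 9875 against 3153, 3165 and 1777 FPKM, a change of -1.71 (standard error 0.42, adjusted p = 0.0222). None of these overlapped between the groups, and neither did 9 of the 13 mRNA genes in all (25.1% of all genes). MT-CO3 missed the threshold (6927, 5133 and 6137 against 2823, 2852 and 971 FPKM, -1.60, adjusted p = 0.0504). MT-CO1 was at 12519.8, 7842 and 11309 against 5457, 5288 and 4925 FPKM (-0.99, adjusted p = 0.122), MT-CYB at 2803, 2238 and 3124 against 1872, 1991 and 601 (-1.04, adjusted p = 0.155) and MT-ATP6 at 6207, 3939.5 and 5137 against 4250.4, 4114 and 1678 (-0.70, adjusted p = 0.301). The other mRNA genes, which were not called, had values between -0.90 (MT-ND4L) and -0.46 (MT-ND2).

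Of the abundant tRNA genes, MT-TC was at 2649, 1441 and 1544 FPKM with calcium and 437, 246 and 368 with DES and calcium, a change of -2.41 on the log2 scale (standard error 0.34, adjusted p = 0.00422). MT-TN was at 1311, 653 and 649 against 202, 119 and 159 FPKM, a change of -2.39 (standard error 0.34, adjusted p = 0.00442). MT-TY was at 196, 140.4 and 139 against 26.1, 16.8 and 62.9 FPKM, a change of -2.37 (standard error 0.46, adjusted p = 0.0106). These 3 did not overlap, unlike MT-TP, which was at 1182, 617 and 1521 against 812, 496 and 568 FPKM and was not called (-0.76, adjusted p = 0.171). The scarce genes called were MT-TG, for glycine, with 23, 48 and 81 against 9, 25 and 6 fragments (-1.77, adjusted p = 0.0494), whose groups overlapped, and MT-TS1, for serine. MT-TS1 had 3, 2 and 2 against 0, 0 and 0 fragments, too few in both groups for a fold. Without DES_calcium 1, 6 mitochondrial genes were called, all lower, and the same number without the third libraries, while the share of all genes called went from 35.1% to 22.2 and 22.3%. MT-ND3, at -0.51, turned positive without DES_calcium 3 (0.07) and without the third libraries (0.35). The other 12 mRNA genes stayed negative under all 17 alternatives, some of which leave the difference unchanged.

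DES with cadmium against cadmium called 5 mitochondrial genes lower and 0 higher, where 5.13% of all genes were called lower and 4.76% higher. All 5 encode tRNAs. MT-TC was at 3317, 1924 and 2325 FPKM with cadmium and 253, 82.0 and 142 with DES and cadmium, a change of -4.10 on the log2 scale (standard error 0.50, adjusted p = 0.0255). MT-TN was at 1709, 2262 and 2708 against 209, 97.8 and 140.3 FPKM, a change of -3.94 (standard error 0.41, adjusted p = 0.0219). MT-TY was at 217, 327 and 392 against 39.6, 10.9 and 52.6 FPKM, a change of -3.41 (standard error 0.60, adjusted p = 0.0321). These 3 of the 37 genes were called lower in all 3 comparisons of DES, which share no libraries with each other, as were 2.11% of all genes tested. MT-TP was at 1470.0, 1759 and 1606 against 1332, 195 and 245 FPKM and was not called (-2.01, adjusted p = 0.124), DES_cadmium 1 lying close to the cadmium libraries. Without DES_cadmium 1 MT-TP was at -2.88 (limma, adjusted p = 0.0361).

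The scarce genes called were MT-TL2, with 3, 9 and 19 fragments with cadmium and 0, 0 and 0 with DES and cadmium, at least 3.10-fold lower, and MT-TG, with 27, 22 and 40 against 4, 4 and 1 (adjusted p = 0.0380), too few for an exact fold. Every library with DES and cadmium lay below every cadmium library in both, though cadmium 1 had only 3 fragments of MT-TL2. By limma, 0 of the 13 mRNA genes were called, with 6 at an unadjusted p under 0.05 (32.6% of all genes), and limma-voom called MT-ND1 and MT-ND6 (12.3% of all genes).

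All 13 mRNA genes had negative values with DES and cadmium (median -1.83, against -0.08 over all genes), with wide spread. MT-ND1 was at 3270.0, 2839 and 2251 FPKM with cadmium and 1473, 300.1 and 588 with DES and cadmium, a log2 difference of -2.11 (standard error 0.66, adjusted p = 0.0838). MT-ND6 was at 2368, 3223 and 3068 against 1173, 222 and 529 FPKM, a difference of -2.47 (standard error 0.67, adjusted p = 0.0610), and had the lowest adjusted p of the mRNA genes. MT-CO1 was at 13747, 15608 and 16748 against 10101, 2242 and 3563 FPKM, a difference of -1.83 (standard error 0.94, adjusted p = 0.223). In each of these genes DES_cadmium 1 lay far above the other libraries of its group while staying below all cadmium libraries. Such separation was seen in 7 of 13 mRNA genes, against 21.4% of all genes. MT-CYB was at 3638, 3629 and 1594 against 2952, 187 and 558 FPKM (-2.03, adjusted p = 0.217), and MT-ATP6 at 7602, 4582 and 3788 against 8205, 483 and 1387 (-1.53, adjusted p = 0.364), with overlap in both. Without DES_cadmium 1 the differences were -2.71 for MT-ND1 (adjusted p = 0.0421) and -3.06 for MT-ND6 (adjusted p = 0.0413), and 5 of the mRNA genes were called (MT-CO2, MT-CO3 and MT-ND3 besides these). Those of MT-CO1 (-2.44), MT-CYB (-3.10) and MT-ATP6 (-2.64) were larger too but not called.

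The rRNA genes were not called with DES and cadmium. MT-RNR1 was at 2349, 1671 and 1975 FPKM with cadmium and 4337, 2574 and 3153 with DES and cadmium (0.73, adjusted p = 0.380), all above those with cadmium alone, as in 18.6% of all genes. MT-RNR2 was at 6603, 10566 and 7869 against 13471, 6336 and 8701 FPKM (0.15, adjusted p = 0.922), and its sign turned in 4 of 17 alternatives, with scaling by total (-0.19) or nuclear (-0.27) fragments and without DES_cadmium 1 (-0.14) or cadmium 1 (-0.0100). With the replicate number as a block the count of mitochondrial genes called was 0, as it was for all genes. It was 0 without cadmium 1, cadmium 2, cadmium 3 or DES_cadmium 3, where 0 of all 14686 genes were called as well. It was 11 without DES_cadmium 1, with 7.16% of all genes called against 9.89% with all libraries.

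**Figure D3:**
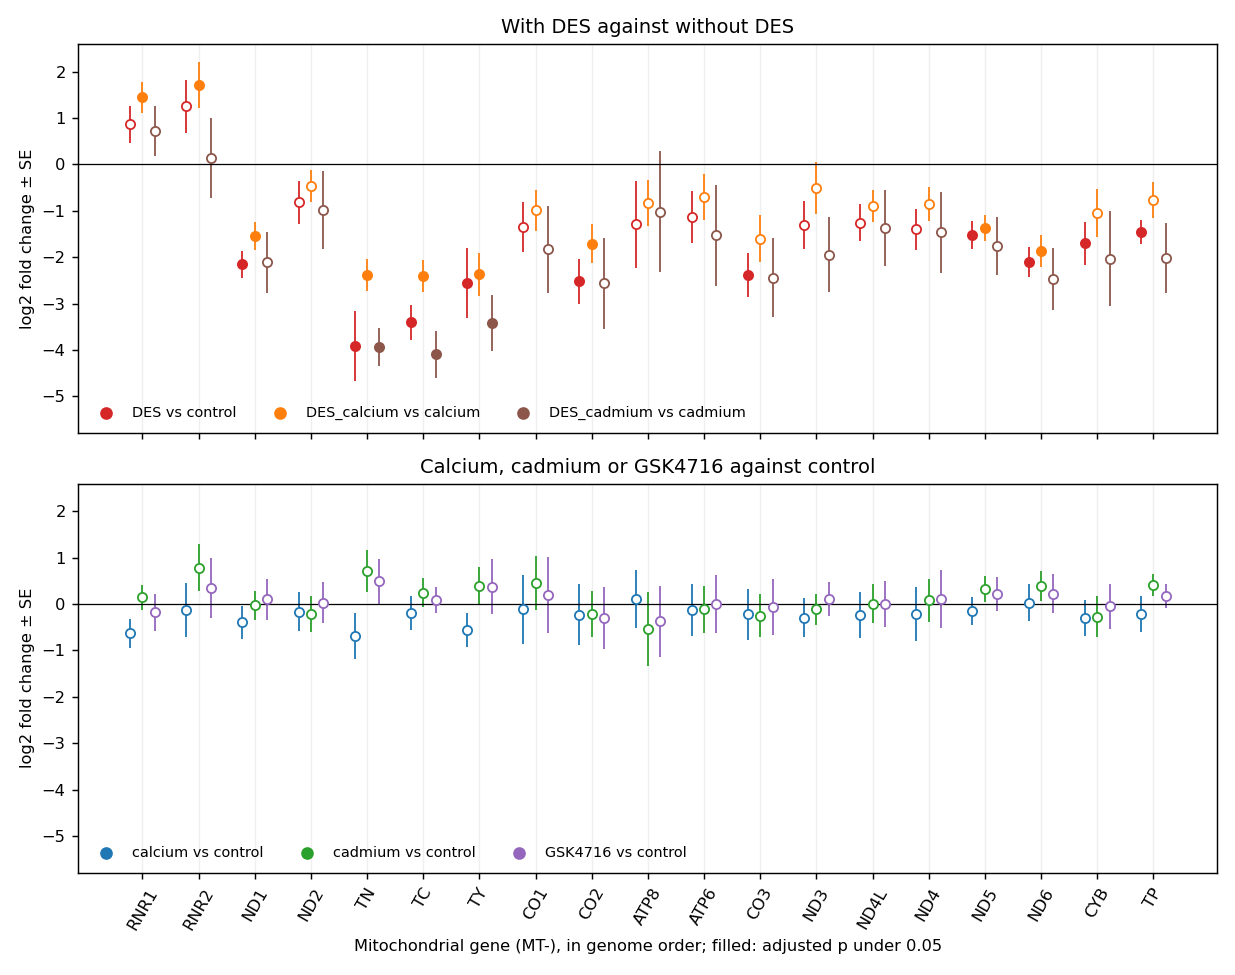
Log2 fold change on the log2(FPKM + 0.1) scale with bars of 1 standard error (limma, 3 libraries a group) for the 19 genes with a mean of at least 100 FPKM, for the 3 comparisons of DES (top) and for calcium, cadmium and GSK4716 against the control (bottom), with filled points for genes called. All 13 mRNA genes lay below 0 and both rRNA genes above 0 in the top panel, and 0 points are filled in the bottom panel.

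Over all 9 libraries with DES and all 12 without, MT-ND1, MT-CO2, MT-CO3 and MT-ND6 (4 of 13 mRNA genes) and MT-TN, MT-TC and MT-TY (3 of 22 tRNA genes) had every DES library below every other library, which held for 4.59% of all genes tested. Both rRNA genes overlapped. The ratio of MT-RNR2 to MT-ND1, plus-strand genes parted by MT-TL1, compares the rRNA with the mRNA inside each library and does not depend on scaling. MT-RNR2 was 1.62, 1.13 and 2.69 times MT-ND1 in the control and 21.3, 17.8 and 15.9 times with DES, on the FPKM scale. The ratio was 2.08, 1.76 and 2.39 with calcium and 25.7, 12.7 and 23.2 with DES and calcium. It was 2.02, 3.72 and 3.50 with cadmium and 9.15, 21.1 and 14.8 with DES and cadmium, and 2.62, 0.724 and 4.33 with GSK4716. Every library with DES had at least 9.15 and every library without it at most 4.33.

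The mean log2 difference of this ratio between DES and no DES, within no metal, calcium and cadmium, was 2.97. The two-sided exact permutation test within these strata gave p = 0.00025, the smallest that its 8000 arrangements can give, and p = 0.0015 after Benjamini-Hochberg adjustment over 6 ratio tests. The difference was 3.42 without metal, 3.25 with calcium and 2.26 with cadmium. For calcium against no metal the mean difference was 0.19 (p = 0.45, adjusted p = 0.63, exact permutation test) and for cadmium 0.22 (p = 0.525, adjusted p = 0.63, same test). The cadmium mean joins opposite signs, 0.80 without DES and -0.36 with DES, while calcium gave 0.27 and 0.11. Single libraries moved both means, to between 0.05 (without control 2) and 0.36 (without control 3) for calcium and between 0.08 (without control 2) and 0.39 (without control 3) for cadmium. Changes of over 1.5 times also came without DES_calcium 1 (0.09) or DES_calcium 2 (0.35), and without cadmium 1 (0.36), cadmium 2 (0.14), DES_cadmium 1 (0.38) or DES_cadmium 2 (0.08).

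The strands were compared by MT-ND6, the minus-strand mRNA, and MT-CYB, a plus-strand mRNA gene close to it. Their log2 ratio differed by -0.55 with DES (p = 0.172, adjusted p = 0.343, exact permutation test), 0.13 with calcium (p = 0.73) and 0.63 with cadmium (p = 0.165, adjusted p = 0.343, same tests). None of these passed. This ratio was highest in the library labelled 3 in every group but DES_cadmium, for example 0.14 against -1.72 and -1.42 with DES. The test did not use the replicate number, so this shared spread counts against any difference. That no difference passed therefore does not show that the strands changed alike. Without DES_calcium 3 the DES value was -0.82 with an unadjusted p = 0.0375 (exact permutation test). The cadmium value was 0.41 without cadmium 3, its lowest, and 0.92 without DES 3, its highest, while the calcium value took either sign, from -0.27 without DES_calcium 3 to 0.41 without DES 3. As a description only, MT-ND6 stood at 1.25 to 1.69 times MT-ND5, which lies beside it on the other strand, in libraries without DES and at 0.727 to 1.15 times with DES. In the same way the log2 ratio of MT-CO3 to MT-ATP6, adjacent on the plus strand, was 0.06 to 0.74 without DES and -1.27 to 0.01 with DES. The protocol describes the strand marking in more than one way, so reads of the opposite strand cannot be told apart from those of the gene where genes face each other.

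**Figure D4:**
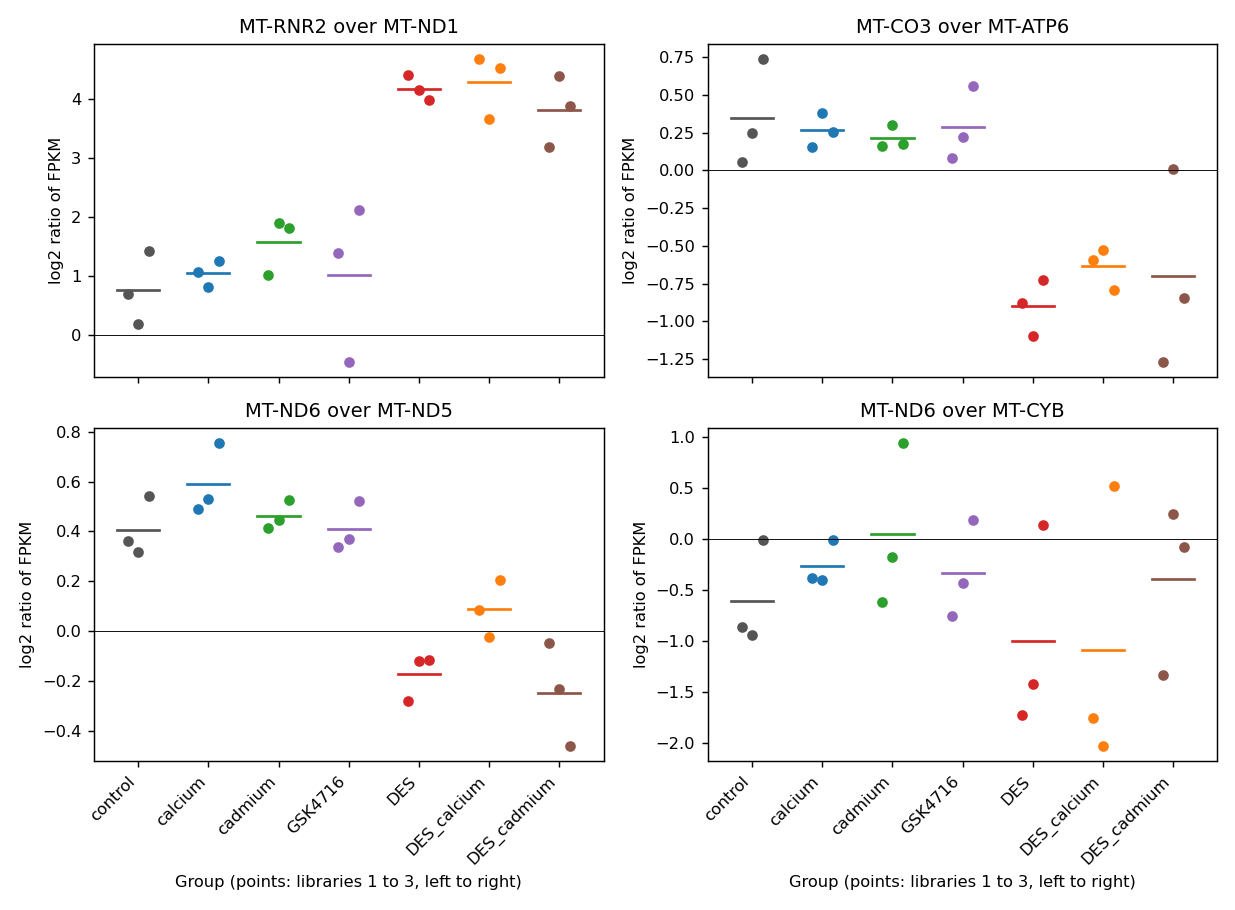
Log2 ratios of FPKM inside each library for 4 pairs of mitochondrial genes in the 7 groups (points, libraries; lines, means of 3). MT-RNR2 over MT-ND1 lay between 3.19 and 4.68 with DES and between -0.47 and 2.11 without, while MT-ND6 over MT-CYB overlapped.

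Calcium, cadmium and GSK4716 were each set against the same control libraries, so these comparisons are not independent. By limma, 0 of 37 mitochondrial genes were called with calcium (7.12% of all genes), cadmium (0.15%) or GSK4716 (0%). At an unadjusted p under 0.05 calcium had 1, cadmium 3 and GSK4716 1, where 23.5, 25.9 and 16.4% of all genes passed. Limma-voom also called 0 in each, with 10.8, 3.28 and 0.538% of all genes called. The median log2 difference of the 13 mRNA genes was -0.21 for calcium, -0.11 for cadmium and 0.03 for GSK4716. MT-RNR2 was at 6938, 3483 and 9226 FPKM with GSK4716, and MT-ND1 at 2646, 4811 and 2133, both overlapping the control. Among tRNA genes, MT-TC was at 2270.3, 2097 and 2216 FPKM, MT-TN at 1333, 1916 and 2542, MT-TY at 138, 572 and 336 and MT-TP at 1396, 1116 and 1616 with GSK4716.

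Adding a metal to DES was set against DES alone, with the DES libraries shared by both comparisons. By limma 0 mitochondrial genes were called with calcium (0.136% of all genes) and 0 with cadmium (0.266%), with 3 and 0 at an unadjusted p under 0.05 (13.2 and 10.4% of all genes). Limma-voom called 0 of all genes in both. Without DES 1, calcium gave 2 calls, MT-TA and MT-TS2 (0.279% of all genes). All 13 mRNA values were positive with calcium (median 0.30), and the median was -0.26 with cadmium. The interaction, which tests whether the DES difference itself changed with a metal, called 0 mitochondrial genes for calcium (3.63% of all genes) and 0 for cadmium (1.18%), with 0 and 2 at an unadjusted p under 0.05 (19.9 and 18.5% of all genes). Limma-voom called 0 in both (4.42 and 0.838% of all genes). By limma, 1 gene was called without calcium 2 (MT-TA, with 1.84% of all genes) and 1 without DES_cadmium 1 (MT-TL1, with 1.19%). That DES passed the test for more genes in one setting than in another is thus not shown to be a difference between settings.

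The other 18 tRNA genes had mean values between 0.864 and 44.2 FPKM. They are 59 to 75 bases long, and no library had more than 142 fragments on one of them (median 5). Of 378 values, 42.6% were at 3 fragments or fewer, and 15 genes were at 0 in at least 1 library. Differences among them were mostly not detectable with so few fragments, and why they had so few was not tested. The best covered was MT-TL1, a tRNA for leucine beside the rRNA genes, with 17 to 142 fragments (median 84) without DES and 23 to 69 (median 30) with it. MT-TE, for glutamate, had 0 to 45 fragments (median 28.5) without DES and 1 to 38 (median 6) with it. MT-TI, for isoleucine, had 1 to 25 fragments (median 15) without DES and 5 to 36 (median 10) with it. These ranges overlapped. MT-TV, for valine, between the rRNA genes, had 0 to 20 fragments (median 8) without DES and 0 to 20 (median 12) with it, and MT-TM, for methionine, 4 to 15 fragments (median 7.5) without DES and 0 to 12 (median 5) with it. MT-TF, for phenylalanine, the first gene of the plus-strand precursor, had 0 to 31 fragments (median 1.5) without DES and 0 to 27 (median 1) with it. MT-TT (threonine) had 0 to 14 fragments (median 6.5) without DES and 0 to 6 (median 0) with it. For the remaining 5 not yet named with values, MT-TK (lysine) had 0 to 7 fragments (median 4) without DES and 0 to 20 (median 1) with it, MT-TQ (glutamine) 0 to 8 fragments (median 3) without DES and 0 to 15 (median 4) with it and MT-TD (aspartate) 0 to 12 fragments (median 4) without DES and 0 to 11 (median 2) with it. MT-TS2 (serine) had 0 to 11 fragments (median 3) without DES and 0 to 9 (median 1) with it, and MT-TA (alanine) 0 to 11 fragments (median 3) without DES and 0 to 8 (median 1) with it.

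MT-ATP8 and MT-ATP6, which share the 46 bases printed above, lie on the same transcript. MT-ATP8 was 1.55 to 7.29% of MT-ATP6 on the FPKM scale (4.09 ± 1.62%, SD over 21 libraries). In 7 of 7 groups the lowest value belonged to the library labelled 3, a pattern noticed after the values were seen and not tested. MT-ND6 over MT-CYB also followed that number, being highest in library 3 in every group but DES_cadmium. The labels name no batch behind the replicate number.

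All 37 genes have a match in the nuclear genome, and for 17 it has at least 98% identity over at least 90% of the gene, so fragments could be shared. A block of chromosome 1 is identical to MT-TN and matches MT-TC and MT-TY at 98.5%, MT-CO1 at 98.6% and MT-ATP6 at 98.5%, and values of such genes are uncertain to that extent. MT-ND1 (82.3%), MT-CYB (86.0%), MT-TP (91.2%), MT-RNR2 (93.2%) and MT-RNR1 (95.7%) have no match that close, nor has MT-ND6. The 407 nuclear copies listed held 0.0062 to 0.068% of fragments in any library. Of these, 3 had a mean of at least 1 FPKM. MTATP6P1 was at 163, 169.8 and 185 FPKM in the control and 114, 79.0 and 72.0 with DES, MTND2P28 at 111, 131 and 132 against 85.8, 39.2 and 76.5, and MTCO1P12 at 15.7, 14.5 and 42.2 against 7.96, 4.36 and 10.9. Each was lower in every DES library than in every control library (22.9% of all genes). MTATP6P1 overlapped between DES with calcium and calcium, where MTND2P28 and MTCO1P12 were lower in every library with DES (25.1% of all genes). Between DES with cadmium and cadmium MTATP6P1 and MTND2P28 overlapped, and MTCO1P12 was lower in every library with DES (21.4% of all genes). Whether these are reads of the mitochondrial genes was not tested.

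A list of 60 nuclear genes was read beside the members, and 56 were tested. Most act on mitochondrial RNA by transcription, cleavage, poly-A addition, decay or modification, while 10 serve replication of the genome and nucleotide supply and 9 are nuclear regulators. One of these regulators, ESRRB, was at 0.0516 ± 0.0322 FPKM in the control and 0.0271 ± 0.0470 with DES (SD, n = 3). Its highest group mean was 0.145 (cadmium), so it fell under the filter. The related ESRRA was at 25.4 ± 5.13 and 14.3 ± 3.40 FPKM in the same groups. Whether the differences with DES ran through ESRRB was not tested. With DES against the control 7 genes of the list were called higher and 5 lower (median -0.12), a share of the list below that of all genes tested (16.7 and 12.9%). None of the 6 transcription genes was called, with TFAM, which packs and starts transcription of the genome, at -0.06 (adjusted p = 0.868), the polymerase POLRMT at 0.21 (adjusted p = 0.296), TFB2M at -0.20 (adjusted p = 0.314) and the elongation factor TEFM at -0.30 (adjusted p = 0.533). Of 8 genes for poly-A addition, stability and decay, 4 were called higher with DES against the control, 4 higher and 1 lower with DES and calcium against calcium, and 0 with DES and cadmium against cadmium (median 0.31), a small group on which no test was run. Among those called with DES alone SLIRP, a partner of the mRNA-stabilizing LRPPRC, was at 13.6 ± 3.03 FPKM in the control and 26.6 ± 7.68 with DES (SD, n = 3), a change of 0.95 (adjusted p = 0.0353) by limma. The helicase SUPV3L1 changed by 0.85 (adjusted p = 0.00925) and the poly-A polymerase MTPAP by 0.61 (adjusted p = 0.0468). LRPPRC (-0.15, adjusted p = 0.520) and the exonuclease PNPT1 (0.05, adjusted p = 0.907) were not called. The largest changes were those of REXO2 (1.49, adjusted p = 0.00146), FASTKD1 (-1.18, adjusted p = 0.0141) and MRM1 (-1.07, adjusted p = 0.00906).

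With DES and calcium against calcium 11 of the 56 were called higher and 7 lower (median -0.13), near the shares of all genes (18.5 and 16.5%). TFAM (0.78), LRPPRC (0.84), SLIRP (1.22) and SUPV3L1 (0.75) rose and PNPT1 (-0.76) fell on the log2 scale, and the largest changes were in PRIMPOL (1.63), NSUN3 (-1.39) and FASTKD5 (-1.27). With DES and cadmium against cadmium 2 were called higher and 3 lower (median -0.16), again near the shares of all genes (4.76 and 5.13%), the largest being HSD17B10 (1.67), NSUN3 (-1.58) and TRMT10C (-1.43). HSD17B10 and TRMT10C are subunits of the enzyme that cuts tRNAs at their 5′ ends.

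**Figure D5:**
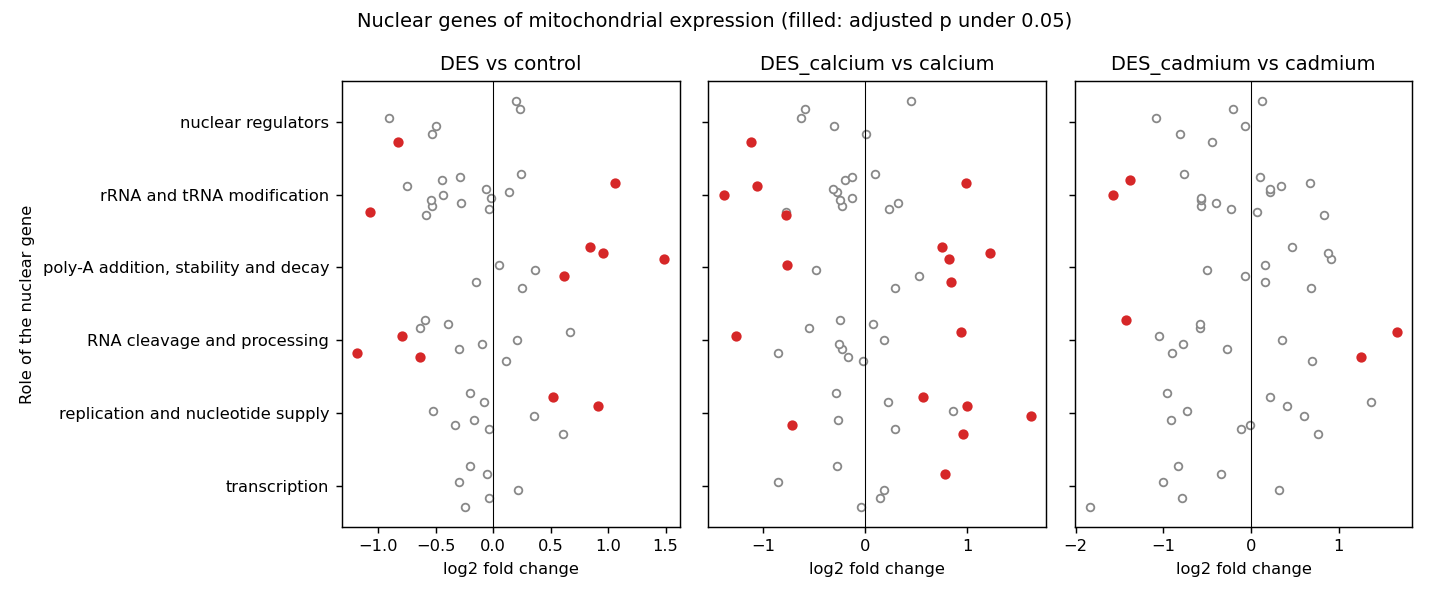
Log2 fold changes of the tested genes of the nuclear list, by role, for the 3 comparisons of DES with its match (filled points, called by limma). Of 8 genes of poly-A addition, stability and decay, 4 were called higher with DES against the control and 0 were called with DES and cadmium against cadmium, and 0 of 6 transcription genes were called with DES against the control, where 16.7% of all genes were called higher.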

How the data were processed

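RNA of 21 libraries was captured on poly-T beads and sequenced. Per the submitters' processing notes, reads were aligned with HISAT2 2.0.5 to GRCh38 and counted with featureCounts 1.5.0-p3, and the authors deposited FPKM per gene. How fragments on 2 overlapping genes were treated is not given in the sources used here. Whole fragments per gene were recovered from the steps of the deposited FPKM values, within 0.1 of a whole number, and give the depth of each library.

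The 37 genes on MT, the gene lists and the tests were chosen with earlier results of these data known. Groups were compared with limma 3.58.1 (R 4.3.3) on log2(FPKM + 0.1) over genes with a mean of at least 0.5 FPKM, in 8 comparisons and 2 interactions, each fit holding the groups compared, with Benjamini-Hochberg adjustment and a threshold of 0.05. The script was tested on simulated data. Ratios were tested by exact permutation within strata. Values in every library were given for the rRNA genes, MT-ND1, MT-ND6, MT-CYB, MT-CO1, MT-ATP6, the tRNA genes and the genes called, with the 18 tRNA genes under 100 FPKM shortened to ranges, and for the nuclear list the core genes and the 3 largest changes among those called. Alternatives were another pseudocount, filter or scaling, all groups in one fit, limma-voom on recovered fragments, a replicate block and leaving out libraries. Leaving out the third libraries was added after the values were seen. Replicate numbers paired the libraries, by correlated deviations over 0.1 in every pair, only in DES with calcium against DES (0.132, 0.103 and 0.280) and DES with cadmium against DES (0.472, 0.121 and 0.313). Matches to the nuclear genome were found with blastn 2.17.0 and sequences read with samtools 1.23.1. Intervals and limits cover counting error only. A marker gene of the list fixed for luminal cells is not reported here.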

Additional observations from a re-analysis of the deposited data

Results flagged for a closer look

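Of the nuclear list, 2 genes had a difference with DES that itself differed by the presence of a metal in the interaction test, 1 of the 56 tested for each metal, where 3.63% of all genes were called for calcium and 1.18% for cadmium. LRPPRC encodes a protein that stabilizes mitochondrial mRNAs. The 3 libraries of each group had 16.8 to 22.9 FPKM of LRPPRC (control), 9.88 to 13.9 (calcium), 16.9 to 19.4 (DES) and 19.9 to 22.7 (DES_calcium). The interaction was 0.99 on the log2 scale (limma, adjusted p = 0.0398), from a DES difference of -0.15 (adjusted p = 0.520) without metal and 0.84 (adjusted p = 0.0109) with calcium, both by limma. The interaction kept its sign under all 23 alternatives, some of which leave the difference unchanged. It was called in 8, among them 2 of the 12 that leave out 1 library (without calcium 2 or control 3), with adjusted p between 0.0292 and 0.134. FASTK encodes a protein of the mitochondrial RNA granule. The 3 libraries of each group had 23.4 to 27.5 FPKM of FASTK (control), 11.8 to 15.6 (cadmium), 14.5 to 18.6 (DES) and 23.8 to 47.2 (DES_cadmium). The interaction was 1.88 on the log2 scale (limma, adjusted p = 0.0326), from a DES difference of -0.63 (adjusted p = 0.0242) without metal and 1.25 (adjusted p = 0.0478) with cadmium, both by limma. The interaction kept its sign under all 23 alternatives, again with some that leave the difference unchanged. It was called in 12, among them 5 of the 12 that leave out 1 library, with adjusted p between 0.00473 and 0.279, the highest without the third library of each group. The DES difference of FASTK was no longer called with cadmium when any 1 of its 6 libraries was left out (adjusted p = 0.0693 to 0.190) or with the replicate block (adjusted p = 0.0822). Without metal it was called in 2 of 6 cases that leave out 1 library and not with the block (adjusted p = 0.0599). That of LRPPRC with calcium was called in 6 of 6 and with the block (adjusted p = 0.0130), all by limma. No mitochondrial gene passed an interaction test, and groups of 3 libraries were not tested for outlying values. FASTK was chosen for naming after its values were seen.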

How the results depend on the processing

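All 13 mRNA genes kept negative values in each comparison of DES with its match under all 17 alternatives, except MT-ND3 in DES with calcium against calcium. The fold change limit, the filters, all groups in one fit and the replicate block leave the difference itself unchanged, so its sign could not turn under them. For the 22 called results of genes with a mean of at least 100 FPKM, 374 of 374 alternative values had the same direction, those of such settings included. Of these values 285 were still called. The number of mitochondrial genes called was less stable. With no filter on low values it was 0 for DES against control, 1 for DES with calcium against calcium and 0 for DES with cadmium against cadmium, where 58735 genes were tested and 2.92, 1.71 and 0.0885% of them were called. Without the third library of each group these counts were 9, 6 and 0, with 16.5, 22.3 and 0% of all genes called. For DES with cadmium against cadmium it was 9 with scaling by total fragments, 10 with scaling by nuclear fragments and 18 with all 7 groups in one fit, with 9.55, 12.2 and 37.2% of all genes called. Scaling by total or nuclear fragments moved the median of all genes by -0.17 and -0.22 in DES against control, -0.18 and -0.21 in DES with calcium against calcium, and -0.31 and -0.39 in DES with cadmium against cadmium. The cause of these shifts in calls was not tested.

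Leaving out 1 library at a time, the counts ranged from 5 to 16 for DES against control (13.1 to 34.6% of all genes called), 6 to 11 for DES with calcium against calcium (22.2 to 29%), 0 to 11 for DES with cadmium against cadmium (0 to 7.16%), 0 to 2 for DES with calcium against DES, and 0 to 1 for each interaction. The log2 difference of MT-RNR2 over MT-ND1 with DES ranged from 2.88 to 3.08. That of MT-ND6 over MT-CYB ranged from -0.82 to -0.40 with DES from -0.27 to 0.41 with calcium and from 0.41 to 0.92 with cadmium. With the replicate block the counts were 12 for DES against control (21.2% of all genes), 12 for DES with calcium against calcium (35.1%) and 0 for DES with cadmium against cadmium (0% of all genes), where the libraries shared only a number by the correlation of their deviations. The labels name no batch behind the replicate number, and whether it marks one was not tested. Where the numbers paired the libraries the block gave 0, as without it, and it moved no other count by over 1.5 times. Low counts limited the scarce tRNA genes, with a median of 5 fragments, and why so few fell on them was not tested.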
